A study of Caenorhabditis elegans with 9 samples.

Results

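The libraries described here are the 3 from animals with the prg-1(∆PAZ-domain) mutation, called PAZ-deletion, and the 3 from wild type, 6 of the 9 small RNA libraries of the series, chosen by the genotype in their titles. Each library came from 20 to 30 whole adult hermaphrodites of Caenorhabditis elegans kept at 25 °C and collected as adults, 24 h past mid-L4, and both genotypes were grown, extracted and cloned by the same protocol, which includes the acid pyrophosphatase step that lets RNAs with a 5′ triphosphate be cloned. The labels give neither an allele nor a strain name, and their growth protocol speaks of male as well as hermaphrodite animals, so the sex was taken from the titles. The 3 libraries of the prg-1(Rnase-dead) mutant, called RNase-dead, entered the fits across entries and were used to rank entries, because they belong to neither group compared. Whether replicates were separate cultures is not stated, and the spread that p-values measure, that of these libraries, may therefore be technical.

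The gene prg-1, at bases 7585329 to 7588367 of chromosome I on the minus strand of WBcel235, encodes the Piwi-clade Argonaute that carries piRNAs in the germ line of this worm. Worm piRNAs are transcribed one by one, mostly from clusters on chromosome IV, begin with a U, and are known to depend on PRG-1 for their accumulation. Loaded PRG-1 recognises germline transcripts by base pairing and calls in the synthesis of secondary siRNAs against them. The PAZ domain of an Argonaute is the pocket in which a guide RNA's 3′ end sits. The comparison asks whether the animals keep their piRNAs without that pocket. The tables count small RNAs and give no prg-1 transcript level, and no check of the genotypes against the gene itself was made.

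PAZ-deletion libraries held 1022428 to 2115662 genome-mapped reads, with 1714 to 3920 reads in the sense orientation of an entry of piRNAdb, a database of piRNA sequences, and 408 to 750 in the antisense orientation. Wild-type libraries held 1561419 to 2921441 genome-mapped reads, with 5129 to 14377 sense and 634 to 1650 antisense reads. Of 15913 entries, 2137 had a sense read in the PAZ-deletion group and 3437 in the wild-type group. In all 3 libraries of their group, 312 entries were read in PAZ-deletion and 690 in wild type. The entries carry neither sequences nor coordinates in the tables, and reads that match several near-identical entries can be split between them, which leaves the levels of individual entries uncertain to the same degree.

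Animals without the PAZ domain had far fewer piRNA reads, and the loss was much larger in the sense orientation, that of the piRNA itself, than in the antisense one. Per 1000000 genome-mapped reads (RPM), sense reads numbered 1676, 1853 and 1959.7 in the PAZ-deletion libraries, against 5930.2, 3285 and 4840.4 in the wild-type libraries. The mutant libraries lay close together, and the lowest wild-type library was well above them. The log2 difference of the means was -1.32 ± 0.26 (SE, n = 3 each), with an exact two-sided permutation p = 0.1, the smallest that 3 libraries against 3 can give. In bulk RNA from whole animals, fewer piRNA-bearing cells and less piRNA per cell cannot be told apart. A segment with 4 annotated ribosomal RNA genes, at the end of chromosome I, took 4.07 to 5.56% of genome-mapped reads in PAZ-deletion and 3.83 to 14.3% in wild type, and without it in the denominator the difference was -1.40.

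Antisense reads were 399, 354 and 399.9 RPM in PAZ-deletion, against 555, 406 and 565 RPM in wild type. The groups did not overlap, but the gap between the highest mutant and the lowest wild-type library was small. The log2 difference was -0.39 ± 0.16 (SE, n = 3 each, exact permutation p = 0.1), and the groups overlapped, with a difference of -0.32 (exact permutation p = 0.3), when the ninth segment of chromosome III, which had the largest mean share of reads over all 9 libraries, was left out of the denominator. That segment took 7.73 to 11.3% of genome-mapped reads in PAZ-deletion and 4.63 to 6.01% in wild type. Of all reads on piRNAdb entries, the sense orientation made up 82.6 ± 1.63% in PAZ-deletion and 90.0 ± 1.28% in wild type (SD, n = 3 each, exact permutation p = 0.1, no overlap). Of 14 single-value comparisons of this kind in the text, 13 stood at the smallest possible p of 0.1, which became 0.108 by the Benjamini-Hochberg method, so none of them could pass a threshold of 0.05.

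**Figure D1:**
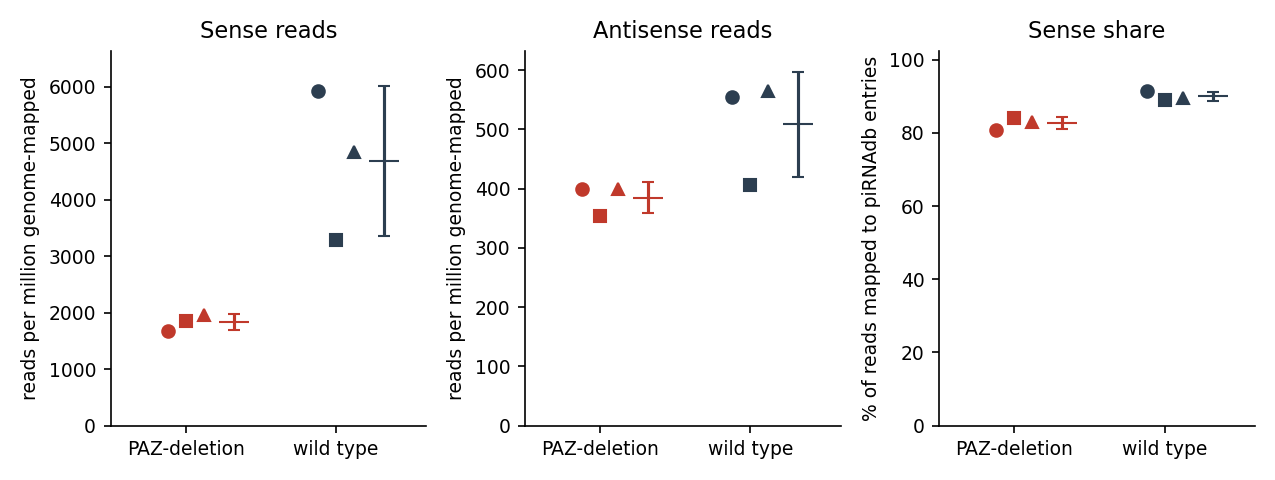
Sense reads, antisense reads (both per 1000000 genome-mapped reads) and the sense share of reads on piRNAdb entries (%) for PAZ-deletion and wild-type libraries. Circles, squares and triangles are replicates 1, 2 and 3, and bars give the mean ± SD of 3 libraries. The mutant libraries sit at 1676 to 1959.7 sense RPM, below all 3 wild-type libraries.

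Counted at equal sequencing of the whole small RNA pool, the mutant showed fewer different piRNAs. Counted at equal numbers of piRNA reads, it showed more. At 1022428 genome-mapped reads per library, reached by thinning, the expected number of entries with a sense read was 820, 822 and 858 in PAZ-deletion, against 1489, 939 and 1256 in wild type. The groups did not overlap, and the log2 difference was -0.53 ± 0.20 (SE, n = 3 each, exact permutation p = 0.1). At 1714 sense piRNA reads per library, the expected numbers were 820, 769 and 774 entries in PAZ-deletion, against 682, 617.5 and 648 entries in wild type. The order of the groups was thus turned round, again without overlap, and the log2 difference was 0.28 ± 0.05 (SE, n = 3 each, exact permutation p = 0.1). The lower count was thus seen at equal sequencing of the whole pool, where the mutant had fewer piRNA reads, while a given number of piRNA reads was spread over more entries in the mutant. Without any thinning the difference was -0.76 and the groups overlapped.

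**Figure D2:**
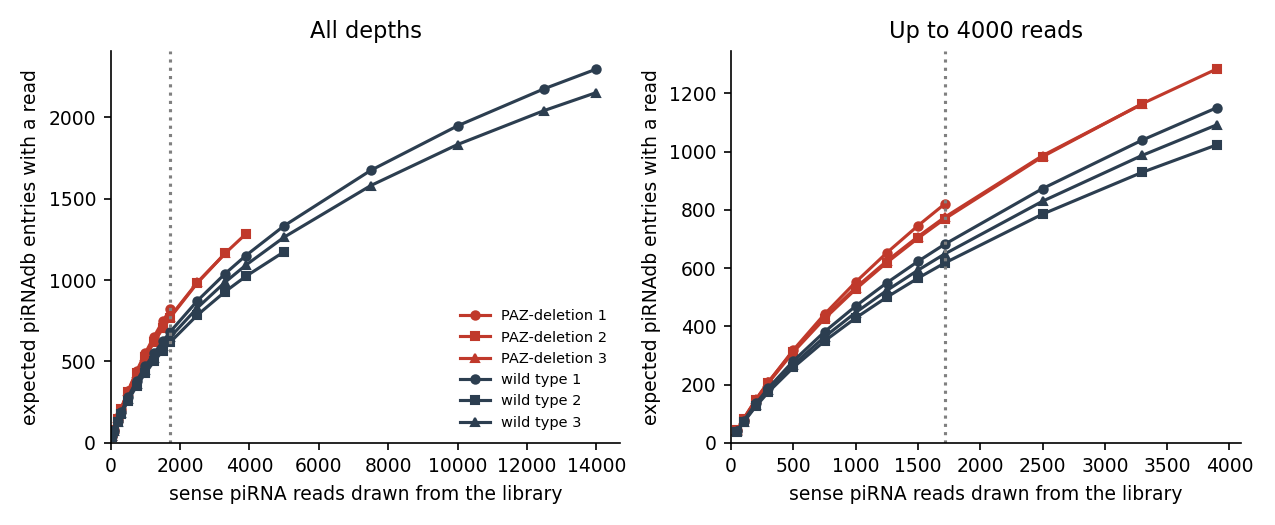
Expected number of piRNAdb entries with a sense read against the number of sense piRNA reads drawn, for each PAZ-deletion library (red) and wild-type library (dark), over all depths (left) and at low depths (right). The dotted line marks 1714 reads, where the mutant curves stand at 769 to 820 entries, above the wild-type curves at 617.5 to 682.

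Rare entries made up more of the mutant repertoire. At 1714 reads, 33.7, 30.1 and 30.0% of reads in PAZ-deletion fell on entries read once, against 26.7, 23.6 and 25.3% in wild type (log2 difference 0.31 ± 0.08, SE, n = 3 each, exact permutation p = 0.1). The effective number of entries, the number of equally abundant entries that would give the same Shannon entropy, was 374, 384 and 405 in PAZ-deletion, against 275, 212 and 232 in wild type. The mutant libraries were again all above the wild-type ones, and the log2 difference was 0.70 ± 0.11 (SE, n = 3 each, exact permutation p = 0.1). The inverse Simpson index, which weighs abundant entries more, was 128.5 ± 38.7 in PAZ-deletion and 53.5 ± 11.2 in wild type (SD, n = 3 each, exact permutation p = 0.1). Pielou evenness, which is 1 when all entries read are equally abundant, was 0.894 ± 0.0098 in PAZ-deletion and 0.845 ± 0.0139 in wild type (SD, n = 3 each, exact permutation p = 0.1).

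Dominance shifted in the same direction. The 10 most abundant entries of each library itself held 22.2 ± 1.80% of sense piRNA reads in PAZ-deletion and 29.8 ± 2.43% in wild type at equal piRNA reads (SD, n = 3 each, exact permutation p = 0.1). The leading entry alone held 8.52, 4.65 and 4.38% in PAZ-deletion, against 9.29, 11.8 and 10.9% in wild type. In the mutant, replicate 1 had the leading share closest to those of wild type, but its leader was a different entry. That entry, cel-piR-14240, held 0.0195 to 0.0566% in the wild-type libraries.

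The direction of the difference in evenness depended on which leading entries were counted. The 3 most abundant entries of the RNase-dead libraries, cel-piR-10036, cel-piR-6101 and cel-piR-2077, are also the leaders in wild type. They made up 1.05, 2.40 and 2.09% of sense piRNA reads in PAZ-deletion, against 18.3, 22.4 and 21.9% in wild type. With these 3 left out and every library thinned to 1696 reads, evenness was 0.894 ± 0.0104 in PAZ-deletion and 0.920 ± 0.0046 in wild type, and the effective number by Shannon entropy was 389 ± 17.9 and 440.1 ± 27.5 (SD, n = 3 each, exact permutation p = 0.1 for both). The order of the groups was reversed for evenness and for this effective number. The number of entries read stayed slightly higher in the mutant, at 789 ± 24.3 against 748 ± 26.5 in wild type (SD, n = 3 each, exact permutation p = 0.1), and with the 10 leading RNase-dead entries left out it was 788 ± 21.0 in PAZ-deletion and 781 ± 24.1 in wild type, with overlap. Leaving out the wild-type leaders keeps the mutant's own leaders in. When the 3 most abundant entries of each library itself were left out instead, evenness was 0.935 ± 0.0065 in PAZ-deletion and 0.925 ± 0.0046 in wild type, the effective number by Shannon entropy was 499.7 ± 49.3 in PAZ-deletion and 414 ± 24.8 in wild type, and 765 ± 44.7 and 674 ± 22.7 entries were read at 1447 reads (SD, n = 3 each). The mutant was then higher in all 3 of these measures without overlap, by less than with all entries counted. The inverse Simpson index overlapped in that setting, at 312.5 ± 45.6 in PAZ-deletion and 261 ± 28.5 in wild type (SD, n = 3 each).

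**Figure D3:**
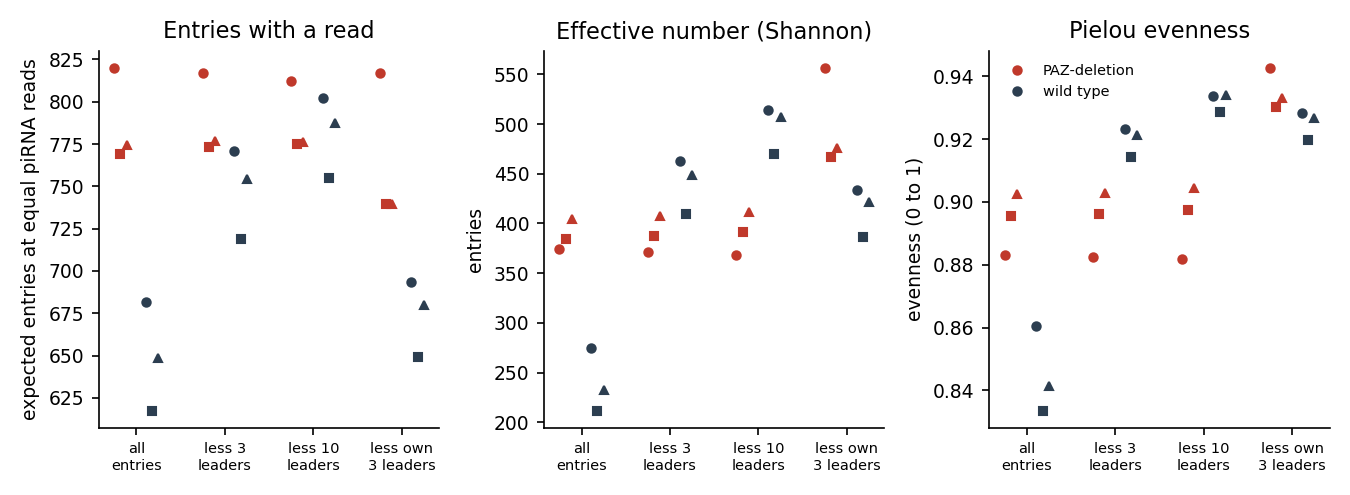
Expected entries with a read, effective number of entries and Pielou evenness at equal piRNA reads, per library, with all entries, without the 3 or the 10 leading RNase-dead entries, and without the 3 leading entries of each library itself. PAZ-deletion is red and stands left of wild type, axes do not start at 0, and symbols mark replicates 1 (circle), 2 (square) and 3 (triangle). Evenness averages 0.894 in PAZ-deletion and 0.845 in wild type with all entries, and 0.894 and 0.920 without the 3 leading RNase-dead entries.

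Ranking entries in the RNase-dead libraries gave abundance classes that used no library of the comparison. The RNase-dead libraries resembled wild type, however. Bray-Curtis dissimilarity, 0 for identical and 1 for disjoint repertoires, was 0.420 to 0.445 between RNase-dead and wild type. Between RNase-dead and PAZ-deletion it was 0.702 to 0.734. The ranking is thus close to one by wild type, which favours a fall in the leading classes and a relative rise in the scarce ones. The 10 leading entries together were far lower in the mutant, with summed rates of 42.1, 96.4 and 88.9 RPM in PAZ-deletion, against 1494, 994 and 1397 RPM in wild type. The mutant mean was 5.85% of that of wild type (log2 difference -4.16 ± 0.42, SE, n = 3 each). The loss was not shared by all 10. The 9 called lower by edgeR summed to 52.8 RPM in PAZ-deletion and 1265 RPM in wild type, and cel-piR-9221, which was not called in level, averaged 23.0 RPM in PAZ-deletion and 29.8 RPM in wild type. The share of these 10 in the repertoire was 4.08 ± 1.40% in PAZ-deletion and 28.1 ± 2.61% in wild type (SD, n = 3 each). These 10 entries accounted for 42.7% of the difference between the group means in total rate. The exact permutation p was 0.1 for rate and for share, and 0.12 when rates were adjusted over the 6 classes.

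The summed rates of the next classes were lower by about as much as the total was, but few of their reads in the mutant came from the entries that fell. Ranks 11 to 50, with 40 entries, summed to 321 ± 41.5 RPM in PAZ-deletion and 803 ± 233 RPM in wild type, or 40.0% of wild type, and ranks 51 to 200, with 150 entries, to 368 ± 56.9 and 896 ± 292 RPM, or 41.1% (SD, n = 3 each, exact permutation p = 0.1 for both). Their shares of the repertoire were 17.5 ± 0.96% in PAZ-deletion and 17.1 ± 0.31% in wild type for ranks 11 to 50 (SD, n = 3 each, exact permutation p = 0.6), and 20.1 ± 1.56% and 19.0 ± 0.89% for ranks 51 to 200 (exact permutation p = 0.4). The groups overlapped in both shares. In ranks 11 to 50, the 30 entries called lower summed to 68.5 RPM in PAZ-deletion and 576 RPM in wild type, and the 10 not called to 253 RPM in PAZ-deletion and 227 RPM in wild type. The median fitted log2 fold change of the 40 was -2.91 in level and -1.66 in share, well below the change of their sum. In ranks 51 to 200, the 72 called lower summed to 66.1 RPM in PAZ-deletion and 527 RPM in wild type, and the 77 not called to 273 RPM in PAZ-deletion and 356 RPM in wild type. These sums are split by the calls themselves and describe the classes only.

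Scarcer entries stood closer to their wild-type rates. The 800 entries that came next in rank summed to 564 ± 27.1 RPM in PAZ-deletion and 966 ± 316 RPM in wild type, or 58.4% of wild type, and the 2769 other entries with an RNase-dead read to 324 ± 13.2 and 499 ± 143 RPM, or 65.0% (SD, n = 3 each, exact permutation p = 0.1 for both). Their shares of the repertoire were higher in the mutant, at 30.9 ± 0.97% in PAZ-deletion and 20.4 ± 1.02% in wild type for the first of these classes and 17.8 ± 1.91% and 10.6 ± 0.15% for the second (SD, n = 3 each, exact permutation p = 0.1 for both). Entries with no RNase-dead read at all were at 177, 177 and 174 RPM in PAZ-deletion, against 318, 140.3 and 221 RPM in wild type. The groups overlapped there (log2 difference -0.28 ± 0.34, SE, n = 3 each, exact permutation p = 0.5), while their share was 9.67 ± 0.84% in PAZ-deletion and 4.73 ± 0.57% in wild type (SD, n = 3 each, exact permutation p = 0.1).

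**Figure D4:**
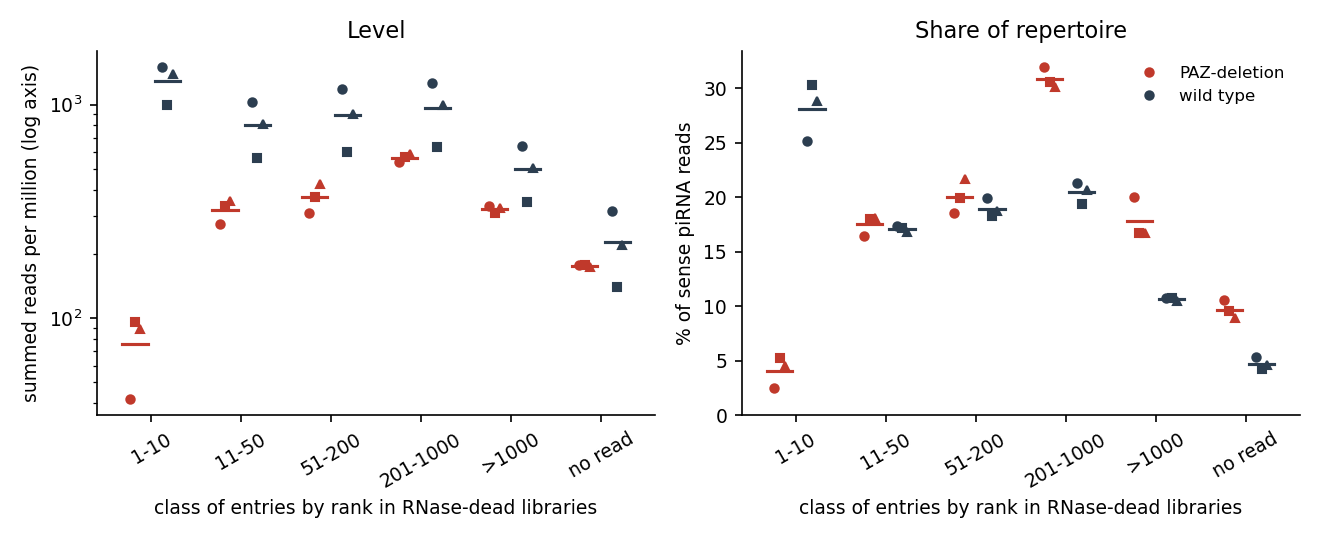
Summed sense rate (left, reads per 1000000 genome-mapped reads, log axis) and share of sense piRNA reads (right, %) of classes of entries ranked in the RNase-dead libraries, with each library as a symbol (replicates 1 circle, 2 square, 3 triangle) and the group mean as a line, PAZ-deletion in red left of wild type. The 10 leading entries stand at 75.8 RPM in PAZ-deletion and 1295 RPM in wild type on average, while ranks 11 to 50 hold 17.5 and 17.1% of the repertoire.

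Entry by entry, the loss was very uneven. Of 1067 entries with at least 10 sense reads in the 9 libraries and a read in at least 3 of them, 205 (19.2%) were lower and 14 (1.31%) higher in PAZ-deletion per genome-mapped reads (edgeR quasi-likelihood test, FDR under 0.05). Relative to the sum of sense piRNA reads, which takes out a loss common to all entries, 75 (7.03%) were lower and 78 (7.31%) higher. All 75 were among the 205, and all 14 among the 78, so 130 entries were lower in level with no call on their share, and 64 were higher in share with no call on their level. The 75 held most of the lost reads, with mean rates that summed to 82.9 RPM in PAZ-deletion and 2014 RPM in wild type, while the 130 summed to 114 RPM in PAZ-deletion and 626 RPM in wild type. Both sums are split by the calls themselves, which favour abundant entries, and describe the sets only. Shares within a library add up to a fixed sum, so a drop in some entries raises the others, and with TMM factors added to the piRNA totals 117 were lower and 32 higher in share (median -0.70). In level, TMM factors gave 154 lower and 23 higher (median -0.93) and DESeq2 with median-ratio size factors 82 lower and 27 higher (median -0.47). Without PAZ-deletion replicate 2, 122 were lower and 9 higher in level and 43 lower and 46 higher in share. Without wild type replicate 1, 136 were lower and 8 higher in level, and without PAZ-deletion replicate 3, 45 were lower and 49 higher in share. The median log2 fold change over the tested entries was -1.25 in level and -0.02 in share, or -0.83 and 0.34 when entries unread in 1 group were given the floor, 3 counts summed over its libraries. Entries could pass the filter through wild-type and RNase-dead reads alone, and 207 of those tested had no read in PAZ-deletion and 13 none in wild type. The tested entries held 75.1 to 80.3% of sense reads in PAZ-deletion and 86.4 to 87.8% in wild type. The counts and medians therefore lean towards entries that are high outside the mutant.

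The leading entries differed widely in the size of their change. Of the 50 leading RNase-dead entries, 39 were lower and 0 higher in level, and 27 were lower and 7 higher in share. Leaving out cel-piR-13631, which was under the floor in both groups, and with the 3 others unread in the mutant set to the floor, the log2 fold changes in level of the remaining 49 had a median of -3.06 and reached 0.87 at the upper end. Of these, 26 were below -3, 13 between -3 and -1, and 10 above -1. In ranks 51 to 200, 72 were lower and 1 higher in level, and 29 were lower and 16 higher in share, with a median of -1.75 in level on the same scale. These counts exceed the shares of 19.2% and 7.03% over all tested entries, although abundant entries are also those in which a fall can be detected.

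The leader of the wild-type repertoire, cel-piR-10036, was at 3.91, 16.5 and 13.0 RPM in PAZ-deletion, against 548, 388 and 536 RPM in wild type. Every mutant library was far below every wild-type library, with a fitted change of -5.37 ± 0.39 on the log2 scale (SE, edgeR FDR 2.46e-39), and the share of piRNA reads was 0.597 ± 0.335% in PAZ-deletion and 10.7 ± 1.32% in wild type (SD, n = 3 each). The second leader, cel-piR-6101, was at 5.87, 14.7 and 9.48 RPM in PAZ-deletion, against 315, 179 and 263 RPM in wild type. The third, cel-piR-2077, was at 7.82, 13.2 and 18.4 RPM in PAZ-deletion, against 219, 169 and 259 RPM in wild type. Replicate 1 of the mutant was the lowest library for all 3 of these.

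Below them in RNase-dead rank, cel-piR-7578 averaged 2.83 ± 1.01 RPM in PAZ-deletion and 82.0 ± 9.11 RPM in wild type, and cel-piR-8214 averaged 2.18 ± 1.44 and 44.7 ± 23.6 RPM (SD, n = 3 each). The entries cel-piR-6252 and cel-piR-8248 fell by 3.37 and 3.84 on the log2 scale, and cel-piR-9316, the least affected of the called entries among the 12 leaders, was at 5.87, 10.4 and 7.11 RPM in PAZ-deletion, against 47.0, 26.3 and 35.6 RPM in wild type. Others were close to absent. A total of 3 reads was left of cel-piR-987 in the mutant group, against 308 in wild type. Pooled rates gave a wild type over PAZ-deletion ratio of 71.7 with an exact 95% counting interval of 24.3 to 349.8. The same number was left of cel-piR-4274, against 116, a ratio of 27.02 with an interval of 9.02 to 133. One of the 12 leaders was not called, cel-piR-9221, with 9.78, 28.4 and 30.8 RPM in PAZ-deletion, against 45.8, 25.6 and 18.1 RPM in wild type.

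Some well-measured entries were not seen in the mutant at all. Of the 8 largest falls under the rule for named entries, 7 had 0 reads in all 3 PAZ-deletion libraries. The rule ranks by fitted change, which is most extreme where a group has no read, so it favours such entries. Of all 1067 tested entries, 207 were unread in PAZ-deletion. The entry cel-piR-3162 had 51.1, 42.9 and 45.2 RPM in wild type and no mutant read, which makes it at least 75.2-fold lower, with the floor of 3 counts over the group. It also varied little between wild-type libraries, at 46.4 ± 4.25 RPM (SD, n = 3). Likewise cel-piR-2717, cel-piR-15599 and cel-piR-216 were at least 28.2-fold, 28.6-fold and 19.8-fold lower, and cel-piR-9721, cel-piR-1694 and cel-piR-4757 at least 15.4-fold, 15.1-fold and 13.7-fold lower. The remaining one of the 8 was cel-piR-238, with 1 read in PAZ-deletion and 351 in wild type, where it was at 40.0, 38.4 and 66.4 RPM. Among entries of any level, 151 of the 690 read in every wild-type library were read in no PAZ-deletion library. Conversely, 16 of the 312 read in every PAZ-deletion library were read in no wild-type library. Both counts were taken without thinning, at 1714 to 3920 sense piRNA reads per library in PAZ-deletion and 5129 to 14377 in wild type. They therefore do not compare the repertoires at equal reads. The mutant libraries were shallower, and 1 read stood for 0.473 to 0.978 RPM in PAZ-deletion and 0.342 to 0.640 RPM in wild type.

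Other abundant entries were still well represented in the mutant. Of the 50 leading RNase-dead entries, 11 were not called in level. One of them, cel-piR-13631, had no read in PAZ-deletion and 1 in wild type. The others had 26 to 362 reads in the mutant group. The best measured was cel-piR-12706, with 54.8, 76.6 and 85.3 RPM in PAZ-deletion, against 69.7, 42.9 and 54.4 RPM in wild type. The groups overlapped (log2 fold change 0.38 ± 0.34, SE, edgeR FDR 0.465), while its share of piRNA reads was 3.92 ± 0.574% in PAZ-deletion and 1.20 ± 0.0938% in wild type (SD, n = 3 each, edgeR FDR 9.27e-09). The entry cel-piR-156 was at 63.6, 44.0 and 53.9 RPM in PAZ-deletion, against 16.5, 28.2 and 42.8 RPM in wild type. Its libraries did not overlap, but its level missed the threshold (log2 fold change 0.87 ± 0.36, SE, edgeR FDR 0.07).

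For cel-piR-15095 the level was 14.7, 32.6 and 31.99 RPM in PAZ-deletion, against 27.2, 26.3 and 28.1 RPM in wild type, and for cel-piR-8748 it was 24.5, 35.4 and 33.2 RPM against 23.1, 23.1 and 28.8 RPM. Both differences in level were under 1 SE of the fit, which does not show that the levels were equal. In share of piRNA reads, 7 of the 50 leaders were higher: cel-piR-9221, cel-piR-15095, cel-piR-156, cel-piR-12706, cel-piR-11525, cel-piR-1430 and cel-piR-8748, with log2 fold changes of 1.03 to 2.15 (edgeR FDR under 0.05). The smallest of these, that of cel-piR-9221, was lost without either of PAZ-deletion replicates 2 and 3, without wild type replicate 3 and with TMM factors, and those of cel-piR-15095 and cel-piR-1430 were lost with TMM factors.

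A small set of entries was higher in level. By far the most abundant was cel-piR-14240, with 143, 85.1 and 58.1 RPM in PAZ-deletion, against 2.89, 0.640 and 2.74 RPM in wild type (log2 fold change 5.36 ± 0.47, SE, edgeR FDR 7.88e-27). It was the leading entry of the mutant group, with 5.36 ± 2.86% of sense piRNA reads in PAZ-deletion and 0.0416 ± 0.0195% in wild type (SD, n = 3 each), and it was ranked 222 in the RNase-dead libraries. Its level varied among the mutant libraries, and replicate 1 was the highest. The entry cel-piR-1592 was at 36.2, 21.7 and 30.8 RPM in PAZ-deletion, against 9.90, 10.9 and 14.7 RPM in wild type (log2 fold change 1.29 ± 0.41, SE, edgeR FDR 0.0131), and lost its call without PAZ-deletion replicate 1.

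Under the rule for named entries, 2 more rose. The entry cel-piR-15075 had 32 reads in PAZ-deletion and 11 in wild type, with an edgeR FDR of 0.0155 that was lost without PAZ-deletion replicate 3 or wild type replicate 1. The entry cel-piR-4006 had 24 reads in PAZ-deletion and 2 in wild type, and pooled rates gave a PAZ-deletion over wild type ratio of 17.2 with a counting interval of 4.26 to 149.9. It had no read in the RNase-dead libraries, and its call was lost without PAZ-deletion replicate 2. In share of piRNA reads the largest rises also included cel-piR-2016, at 0.220 ± 0.0933% in PAZ-deletion and 0.0205 ± 0.00091% in wild type, and cel-piR-1166, at 0.225 ± 0.159% and 0.0252 ± 0.0088% (SD, n = 3 each). That of cel-piR-1166 was lost without PAZ-deletion replicate 2. The other 10 entries called higher in level had 6 to 25 reads in the mutant group and 0 to 3 in wild type.

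**Figure D5:**
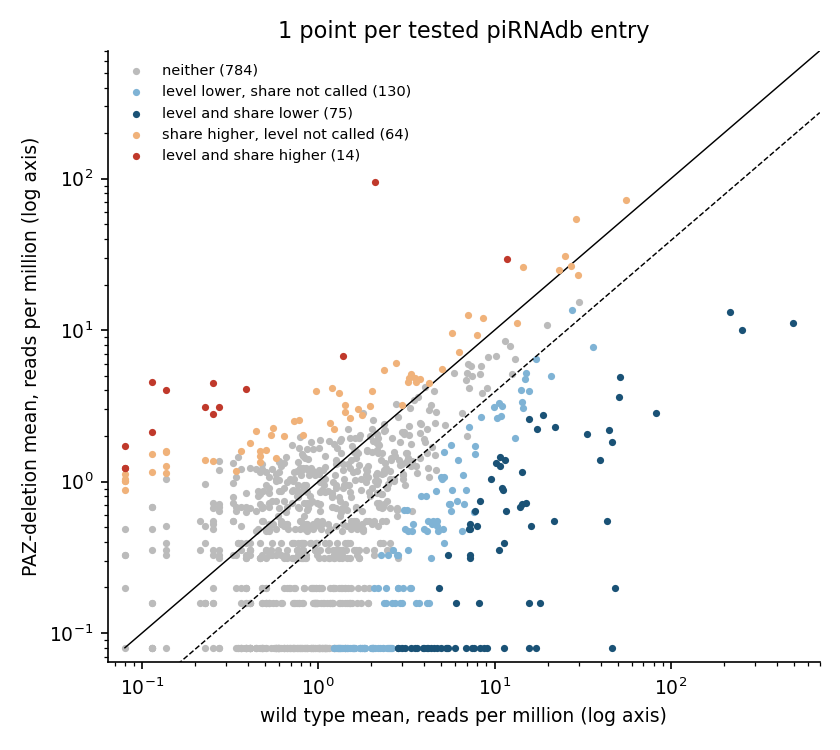
Mean sense level of the 1067 tested entries in PAZ-deletion against wild type (reads per 1000000 genome-mapped reads, log axes, means under 0.08 drawn at 0.08). The solid line marks equal levels and the dashed line the ratio of the group totals, and colours give the edgeR calls in level and in share. Abundant entries spread widely, from cel-piR-10036, at 11.2 RPM in PAZ-deletion and 491 RPM in wild type, far below both lines, to cel-piR-12706 near the solid one.

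The repertoires also differed as wholes. Bray-Curtis dissimilarity at equal piRNA reads, which is 0 for identical and 1 for disjoint repertoires, was 0.695 to 0.730 between a PAZ-deletion and a wild-type library, 0.479 to 0.521 within PAZ-deletion and 0.394 to 0.432 within wild type. The mean between groups exceeded the mean within groups by 0.25 (exact permutation p = 0.1 over the 10 distinct splits, the smallest possible). Without the 3 leading RNase-dead entries the excess was 0.18. The Morisita overlap, which gives weight to abundant entries and is near 1 for equal repertoires, was 0.151 to 0.298 between groups, 0.798 to 0.962 within PAZ-deletion and 0.969 to 0.996 within wild type. The mutant libraries thus shared their leaders with one another. Of the 10 most abundant entries, any pair of PAZ-deletion libraries shared 8 or 9, any pair of wild-type libraries 6 to 9, and a PAZ-deletion and a wild-type library 1 or 2. Which entries were read at all differed less, with 30.8 to 35.2% of entries shared (Sørensen index) between groups, 39.0 to 41.3% within PAZ-deletion and 40.6 to 40.8% within wild type.

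Antisense reads, which lie opposite a piRNA sequence, held a repertoire of their own. At 408 antisense reads, 173 ± 25.3 entries were read in PAZ-deletion and 183 ± 13.1 in wild type (SD, n = 3 each, exact permutation p = 0.7), and the groups overlapped. Among the 127 that passed the filter, 20 (15.7%) fell and 2 (1.57%) rose in PAZ-deletion (edgeR FDR under 0.05), and 13 or 10 were called in all without PAZ-deletion replicate 2 or 3. Here too the filter leaned towards entries high outside the mutant, and 32 of the 127 had no read in PAZ-deletion and 2 none in wild type. The entry cel-piR-1090 had 35.5, 17.3 and 28.4 RPM in wild type and no read in PAZ-deletion, at least 45.6-fold lower, and cel-piR-6514 and cel-piR-10514 had no mutant read either, at least 16.1-fold and 12.1-fold lower. Here too the ranking by fitted change favours entries without a mutant read. Passed over by it was cel-piR-1259, named after its values were seen, with 1 read in PAZ-deletion and 232 in wild type. Its log2 fold change was -6.90 ± 0.77 (SE, edgeR FDR 1.45e-16). The rise under the rule was that of cel-piR-11247, with 21 reads in PAZ-deletion and 0 in the other 6 libraries, at least 10.02-fold higher than in wild type. The other, cel-piR-1276, had 14 reads in PAZ-deletion and 1 in wild type, and is named after its values were seen.

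The antisense repertoire of the mutant leaned on cel-piR-1599, the entry with most antisense reads, chosen after its values were seen. It was at 166, 74.2 and 88.3 RPM in PAZ-deletion, against 70.9, 51.9 and 70.5 RPM in wild type, without overlap and without a call (log2 fold change 0.75 ± 0.35, SE, edgeR FDR 0.12). The leading antisense entry of each library held 41.7, 21.0 and 22.3% of antisense reads in PAZ-deletion, against 12.8, 12.8 and 12.6% in wild type (exact permutation p = 0.1). Without cel-piR-1599 the log2 difference of the antisense total was -0.69 in place of -0.39.

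The genome-wide counts of the same libraries gave a broader view that is not limited to piRNAs, since siRNAs and microRNAs fall in the same segments. Of 104 segments of up to 1000000 bases, 29 (27.9%) were lower and 18 (17.3%) higher in PAZ-deletion (edgeR FDR under 0.05, shares of genome-mapped reads). Segments were placed on chromosomes by their order and lengths. Chromosome IV, which holds 95.8% of the 15363 piRNA genes annotated by Ensembl, took 15.6 ± 0.074% of genome-mapped reads in PAZ-deletion and 13.98 ± 1.98% in wild type (SD, n = 3 each, exact permutation p = 0.1). Without the ribosomal RNA segment in the denominator these shares overlapped (p = 0.7 in the exact permutation test), and without wild type replicate 2 the log2 difference was 0.05 in place of 0.17.

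The 7 segments with at least 500 annotated piRNA genes, all on chromosome IV, did not move together. Their summed share of genome-mapped reads was 7.89 ± 0.82% in PAZ-deletion and 6.29 ± 1.11% in wild type (SD, n = 3 each). The groups were apart only narrowly, at 7.27% in PAZ-deletion replicate 3 and 7.25% in wild type replicate 1. In wild type replicate 1 the ribosomal RNA segment took 12.2% of genome-mapped reads. The sum was not compared without that segment in the denominator, so the separation may rest on it. Bases 15000001 to 16000000, with 3519 such genes, were lower (log2 fold change -0.64 ± 0.18, SE, edgeR FDR 0.00174), as were bases 16000001 to 17000000 (-0.53 ± 0.18) and 17000001 to 17493829 (-0.63 ± 0.17). Bases 5000001 to 6000000, with 1638 such genes, were higher, at 51051 ± 12353 RPM in PAZ-deletion and 30701 ± 6932 RPM in wild type (SD, n = 3 each, log2 fold change 0.73 ± 0.23, SE, edgeR FDR 0.00574). All sense piRNA reads of these libraries came to only 1676 to 5930.2 RPM, so most reads of that segment were not sense piRNA reads. The other 3, with 910 to 3476 such genes, were not called. Falls of this size were not particular to segments rich in piRNA genes. Of the other 11 segments of chromosome IV, 2 were lower and 2 higher. Their median log2 fold change was -0.31, against -0.29 for the 7. Bases 11000001 to 12000000 of chromosome III, with 0 annotated piRNA genes, fell by 0.71 ± 0.17 on the log2 scale (SE). The 2 largest falls under the rule for named segments were on chromosome X, at bases 1 to 1000000, with 526 ± 52.1 RPM in PAZ-deletion and 3431 ± 653 RPM in wild type, and at bases 15000001 to 16000000, with 786 ± 38.5 and 2877 ± 507 RPM (SD, n = 3 each). The third was bases 14000001 to 15000000 of chromosome II, where wild type replicate 2 stood apart, at 50979 RPM against 11601 and 14048 RPM in the other wild-type libraries and 7180 to 9273 RPM in PAZ-deletion. Its 3 rises were at bases 9000001 to 10000000 and 2000001 to 3000000 of chromosome X and bases 2000001 to 3000000 of chromosome III, with log2 fold changes of 1.21, 0.89 and 0.94.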

How the data were processed

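Per the labels' protocols, a mirVana kit was used for extraction, acid pyrophosphatase for the 5′ ends and a TruSeq Small RNA kit for the libraries. FastQC 0.12.0 and cutadapt 3.7 are named in the submitters' processing notes. Not given in the sources used here are the aligner, the genome build and the treatment of reads that match several places. The authors deposited raw counts of sense and antisense reads per piRNAdb 1.7.6 entry and raw counts per genome segment, with a table of read totals per library. The row of totals was left out of every fit.

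Rates are reads per 1000000 genome-mapped reads. Entries and segments were tested with edgeR 4.0.16 (R 4.3.3, quasi-likelihood test, all 9 libraries in 1 fit, Benjamini-Hochberg over all tested), with library size set to genome-mapped reads for levels and to summed sense piRNA reads for shares. The SE of a fitted change was back-calculated as the absolute log2 fold change over the square root of the test's F statistic. Fits were tested on simulated data. Single values were compared by two-sided exact permutation tests of 3 libraries against 3. Richness and Shannon entropy at equal reads were computed exactly by hypergeometric thinning, and shares of leading entries and dissimilarities over 100 seeded draws. Counting intervals (95%, Clopper-Pearson) and the floor of 3 counts cover counting error only, since reads without molecular identifiers are not independent molecules.

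Named entries were the 12 with the highest mean sense rate in RNase-dead. To these were added, among called entries with at least 20 reads in the higher group and no overlap, the 8 largest falls and up to 6 largest rises in level, the 5 largest of each in share, and the 3 largest of each for antisense reads and for segments. The groups compared and the lists were chosen with earlier results of these data known. Segments were assigned to chromosomes by their order and lengths, and the ends fit WBcel235. Normalization, filter, tool, denominator, leading entries and single libraries were varied. Replicate numbers were not taken as pairs of libraries.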

Additional observations from a re-analysis of the deposited data

How the results depend on the processing

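Of the alternatives run for the single values and classes, 202 kept the direction and 13 reversed it. Richness at equal piRNA reads became -0.76 (log2) without thinning and -0.036 without the 50 leading RNase-dead entries. Without the 3, 10 and 50 leading RNase-dead entries the log2 difference in Shannon number was -0.18, -0.35 and -0.37, and that in Pielou evenness -0.0257, -0.0375 and -0.0345. Without the 3, the inverse Simpson index differed by -1.09 and the share of the 10 leading entries by 0.62 (log2). The alternatives with 10 and 50 entries, those without each library's own leaders or cel-piR-1599, and those without the ribosomal RNA segment were chosen after seeing the data. Leaving out 1 library moved antisense richness between -0.18 and 0.0307 and the rate of entries with no RNase-dead read between -0.59 and 0.00141. Ranked over all 9 libraries, the share of ranks 51 to 200 differed by -0.0908, and the class with no read gave no value.

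Counts of called entries moved more. With no filter beyond 1 read, 135 were lower and 5 higher in level, 47 lower and 42 higher in share, and 11 antisense entries were called. With at least 30 reads, 8 were higher in level and 46 in share. TMM factors gave 23 higher in level, and 117 lower and 32 higher in share. DESeq2 1.42.0 gave 6 higher in level with genome-mapped size factors, 82 lower and 27 higher with median-ratio size factors, and 49 lower in share. Leaving out 1 library gave 122 to 238 lower and 8 to 11 higher in level, 43 to 75 lower and 46 to 72 higher in share, 10 to 21 antisense entries and 36 to 53 segments.

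Same-numbered libraries of both genotypes showed no clear common deviation, with correlations across entries of -0.003 to 0.037 in level and -0.010 to 0.057 in share. Differently numbered ones gave -0.060 to 0.035 in level and -0.082 to 0.051 in share. Low counts keep such correlations small, so they cannot exclude a pairing. The numbers were not taken as pairs. With a replicate block, 160 were lower and 9 higher in level, 61 lower and 59 higher in share, 21 antisense entries and 44 segments were called, and the sign-flip test of the total sense rate gave an exact p = 0.25, the smallest 3 pairs allow. No paired test was made for classes or dissimilarity. Of the named entries, the level of cel-piR-9221 turned to 0.0661 with TMM factors, 0.44 with DESeq2 median-ratio factors, and ran from -0.61 to 0.15 with 1 library left out (positive without wild type replicate 1), and that of cel-piR-15095 to 0.34 and 0.73 with the same factors, and to 0.0518 less the segment of highest share, and ran from -0.19 to 0.25 with 1 library left out. The level of cel-piR-1430 ran from -0.27 to 0.59 with 1 library left out, and the share of cel-piR-11716 to -0.27 with TMM factors. The cause of these changes was not tested. The shallowest mutant library, with 1714 sense reads, sets the depth of every thinned value.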
